A study of Mus musculus with 2 samples.

Results

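The genes described here encode the proteins of the cytosolic ribosome. They were taken by symbol, as every gene named Rpl or Rps followed by a number (with an optional a, x, l or y suffix), Rplp or Rpsp with a digit, or Rpsa, provided that at least 1 of its annotated transcripts was typed protein coding. The rule found 84 of 22015 nuclear protein-coding genes, or of 55536 annotated gene entries in all. Of these, 77 encode the standard proteins of the ribosome, 31 of the small subunit (40S) and 46 of the large subunit (60S), with the 3 stalk proteins counted among the 60S genes as Rplp0, Rplp1 and Rplp2. The other 7 are paralogues, genes whose products resemble a standard protein: Rpl3l, Rpl7l1, Rpl10l, Rpl22l1, Rpl36al, Rpl39l and Rps27l.

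The data are polyadenylated RNA-seq of bone marrow-derived macrophages of the mouse strain C57BL/6J, primary cells grown out of bone marrow. All cells had been given Lipid A, the membrane anchor of bacterial lipopolysaccharide, at 100 ng/mL for 12 h, had then been washed for 12 h, and had then received a second dose of 100 ng/mL Lipid A lasting 30 min. The free-text label names Lipid A and the treatment label names lipoprotein A. The 2 libraries, replicate 1 and replicate 2, are biological replicates of this single group and share 1 donor record, and whether the cultures derive from different animals is not stated. No untreated library was analysed here, so nothing below is an effect of Lipid A, and the spread between the libraries may be technical.

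A ribosome carries 1 copy of almost every ribosomal protein, and the genes for them are scattered over the genome while their products are needed in equal amounts. Their mRNAs are short, stable and abundant, and most begin with a 5′ terminal oligopyrimidine (TOP) tract, through which the kinase mTOR and the RNA-binding protein Larp1 set how much of each mRNA is translated. mRNAs of this kind have repeatedly been copied back into the genome by reverse transcription, which left many intronless and nearly identical pseudogenes. In macrophages, translation of TOP mRNAs responds to growth factor, nutrient and Toll-like receptor signals.

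Replicate 1 held 41938419 gene counts and replicate 2 held 30780681. All 8 macrophage markers examined were detected, led by Lyz2 with 8427 TPM (a level per transcript length, scaled to the same total in each library) in replicate 1 and 11649 TPM in replicate 2. Lyz2 and Cd14 were higher in replicate 2, and the other 6 were higher in replicate 1. Cd14 was more than 2-fold apart, with 202 TPM in replicate 1 and 428 TPM in replicate 2. Neutrophil markers summed to 72.7 TPM in replicate 1 and 9.34 TPM in replicate 2, with Ly6g at 0 counts in both. The 4 collagen and fibroblast markers summed to 525 and 595 TPM. Of 4 T cell markers only Cd4 passed 1 TPM, at 58.2 and 37.7 TPM, while Cd3e, Cd3d and Cd8a had 3 counts or fewer. Of 4 B cell markers only Cd79b passed 1 TPM, at 7.78 and 3.96 TPM. The 3 erythroid markers had at most 1 count each. The ribosomal RNA entry CT010467.1 took 1.37% of counts in replicate 1 and 4.25% in replicate 2. In bulk RNA, fewer cells of a type and less RNA per cell cannot be told apart.

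The ribosomal protein mRNAs were among the most abundant in these macrophages. In the alignment-derived table the 84 genes held 4.82% of all TPM in replicate 1 and 5.14% in replicate 2. Because the transcripts are short they took a smaller share of the counts, 1.32% in replicate 1 and 1.39% in replicate 2. The 77 standard genes had a median of 531 TPM in replicate 1 and of 563 TPM in replicate 2, against medians of 16.8 and 15.7 TPM over the 10960 protein-coding genes with a mean of at least 1 TPM. Of the 84 genes, 67 stood among the 500 most abundant protein-coding genes and 14 among the 100 most abundant. All 77 standard genes passed 1 TPM in both libraries, and 76 passed 100 TPM. The order of the 77 genes was close to the same in both libraries (Spearman's rho = 0.968 across genes, which share the library preparation and are not independent).

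Among small-subunit genes the highest was Rps24, a protein of the subunit body needed to process the precursor of its ribosomal RNA. Rps24 (chr14:24487125-24496959, plus strand, mm10) had 2679 TPM in replicate 1 and 3019 TPM in replicate 2, a mean of 2849 ± 240.0 TPM (SD, n = 2). It stood at rank 27 of all protein-coding genes. Rps27, a zinc-finger protein of the solvent side, had 1703 and 1946 TPM. Rps29, a small zinc-binding protein of the subunit head, had 1502 and 1504 TPM, so the libraries hardly differed for it. Over the 31 small-subunit genes the median stood at 585 TPM in replicate 1 and at 643 TPM in replicate 2. Rps20 was lowest in replicate 1 with 217 TPM and Rps23 in replicate 2 with 288 TPM, so no standard small-subunit gene was below 200 TPM in this table.

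Large-subunit genes reached down further. The highest was the stalk protein gene Rplp1, whose product helps to recruit elongation factors, with 1386 TPM in replicate 1 and 1762 TPM in replicate 2. Rpl41, which encodes a very short basic peptide, had 1301 and 1544 TPM. Rpl10, a protein that joins the large subunit late in its assembly, had 1279 and 1403 TPM. The median over the 46 genes was 488 and 461 TPM. The lowest gene was Rpl5, whose product carries the 5S ribosomal RNA together with Rpl11 and can bind Mdm2. Rpl5 (chr5:107900502-107909005, plus strand) had 46.2 TPM in replicate 1 and 49.1 TPM in replicate 2, a mean of 47.7 ± 2.05 TPM (SD, n = 2), and stood at rank 2654. Both libraries put it below every other standard gene. The next was Rpl10a, a protein of the L1 stalk, with 156 TPM in each library, followed by Rpl21 with 171 and 188 TPM. Rpl27a had 199 and 193 TPM, Rpl36a 175 and 235 TPM, and Rpl37 205 and 206 TPM. Pseudogene copies of Rpl5, Rpl27a and Rpl36a, defined below, stood higher than the genes themselves in the alignment-derived table. The Rpl5 copy Gm15500 had 281 TPM in replicate 1 and 352 TPM in replicate 2. The Rpl27a copy Gm7536 had 457 and 514 TPM, and the Rpl36a copy Rpl36a-ps2 had 198 and 299 TPM. Whether the sharing of reads with these copies set the low places of the genes was not tested.

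The paralogues divided into detected and barely detected genes. Rpl36al, a paralogue of Rpl36a, had 305 TPM in replicate 1 and 247 TPM in replicate 2, against 175 and 235 TPM for Rpl36a. The copy Rpl36a-ps2 held a further 198 and 299 TPM, so the order of Rpl36al and Rpl36a depends on where that signal belongs. Rps27l, a paralogue of Rps27 known as a p53 target, had 188 and 217 TPM. Rpl22l1, a paralogue of Rpl22, had 74.2 and 95.4 TPM, against 287 and 361 TPM for Rpl22. Rpl7l1 had 66.9 and 65.0 TPM. Rpl39l, known from testis, had 12 and 8 counts, which amounted to 0.80 and 0.88 TPM. Rpl3l, the striated muscle paralogue of Rpl3, had 2 counts in replicate 1 and 0 in replicate 2. Rpl10l, a testis retrogene of Rpl10, had 0 counts in both libraries, and a count of 0 allows up to 3 counts in each.

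**Figure D1:**
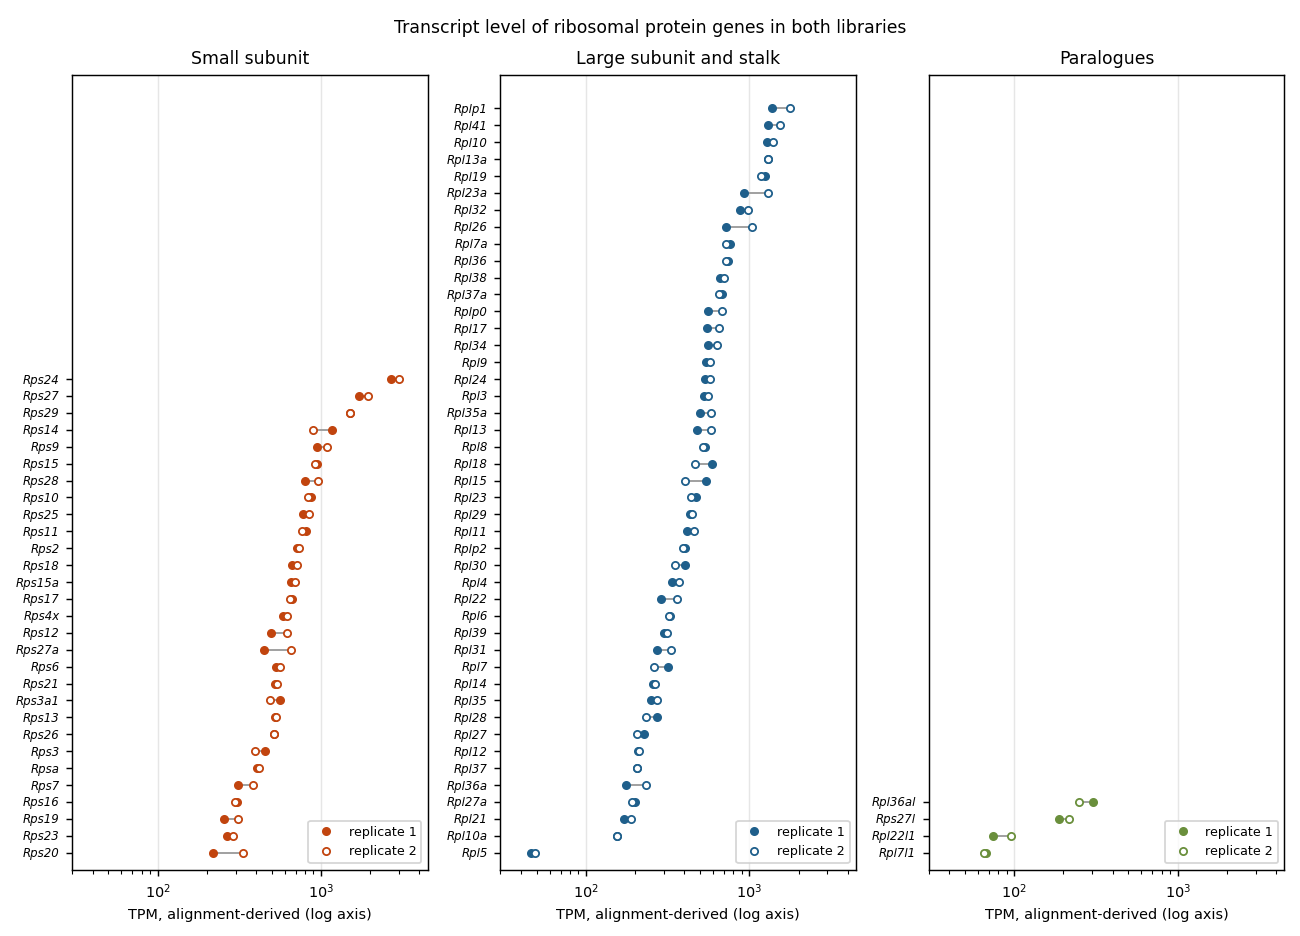
Transcript level of 78 of the 81 ribosomal protein genes with a mean of at least 1 TPM, in TPM of the alignment-derived table on a log axis, for small-subunit genes, large-subunit and stalk genes, and paralogues; filled points are replicate 1, open points replicate 2, and a line joins the 2 values of a gene. Rps24 stood highest at 2679 and 3019 TPM and Rpl5 lowest of the standard genes at 46.2 and 49.1 TPM; Rpl3l, Rpl10l and Rpl39l lie below 1 TPM, and 3 of the 81 genes above it are also not drawn.

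Across the 77 standard genes, longer transcripts had lower TPM (Spearman's rho = -0.58 between transcript length and mean TPM) and higher counts (rho = 0.40). The points share the same libraries and the same division by effective length, the number of positions at which a fragment can start. For the shortest gene, Rps27, the effective length was 97.5 bases in replicate 1 and 84.9 bases in replicate 2.

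Ribosomal protein mRNA was next compared between the libraries. Counts were scaled by TMM, a normalization that centres most genes, and the log2 ratio of replicate 1 over replicate 2 was taken for the 81 members with at least 20 counts in both. None of the 81 was 2-fold higher in replicate 1, against 0.521% of the 12471 genes that passed the same filter, and none was 2-fold lower, against 1.94% of those genes. With such low shares among all genes, counts of 0 say nothing particular to the members. The members' median log2 ratio was -0.06 with an SD over genes of 0.20, while over all 12471 genes the median was 0.02 and the SD 0.39. Over the 5240 protein-coding genes with at least 2000 summed counts, a depth closer to that of the members, the median was 0.07 and the SD 0.29. With 1 library on each side there is no test between them. Counting error alone is small at this depth: the exact binomial 95% interval lay above 0 for 22 members, below 0 for 41 and on 0 for 18. These intervals cover counting error only, not the difference between cultures. The same split was not counted over all genes, so it says nothing particular to the members.

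The lowest ratios were those of Rps20, a protein of the subunit head, and Rps27a, which is made as a fusion with ubiquitin. Rps20 had 217 TPM in replicate 1 and 335 TPM in replicate 2, from 3859 and 4295 counts. Its log2 ratio was -0.61 (interval -0.67 to -0.54). Rps27a had 448 TPM in replicate 1 and 652 TPM in replicate 2, a log2 ratio of -0.56 (interval -0.61 to -0.51). Rpl26 and Rpl23a, which lie near the exit of the peptide tunnel, followed with log2 ratios of -0.48 and -0.46. Rpl26 had 722 TPM in replicate 1 and 1032 TPM in replicate 2, and Rpl23a had 932 and 1303 TPM. Rpl36a was next with a log2 ratio of -0.37. All 5 were higher in replicate 2.

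At the other end, Rps14, a protein of the subunit platform, had 1164 TPM in replicate 1 and 896 TPM in replicate 2, with 10702 and 5938 counts. Its log2 ratio of 0.40 (interval 0.35 to 0.44) was the highest of the 81. Both ends of the order depended on the table: in FASTQ-derived counts the lowest ratio was that of Rps12 at -0.78 and the highest that of Rpl5 at 0.61. Rpl15 had 543 TPM in replicate 1 and 402 TPM in replicate 2, a log2 ratio of 0.37. Rpl36al, Rpl18 and Rpl7 followed with log2 ratios of 0.33, 0.32 and 0.26. These 5 were higher in replicate 1, and genes of both subunits stood at both ends of the order. Transcript length and log2 ratio were unrelated over the 77 standard genes (Spearman's rho = -0.00). The neutrophil marker sum and the CT010467.1 share given above also differed between the libraries, and their part in these ratios was not tested.

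**Figure D2:**
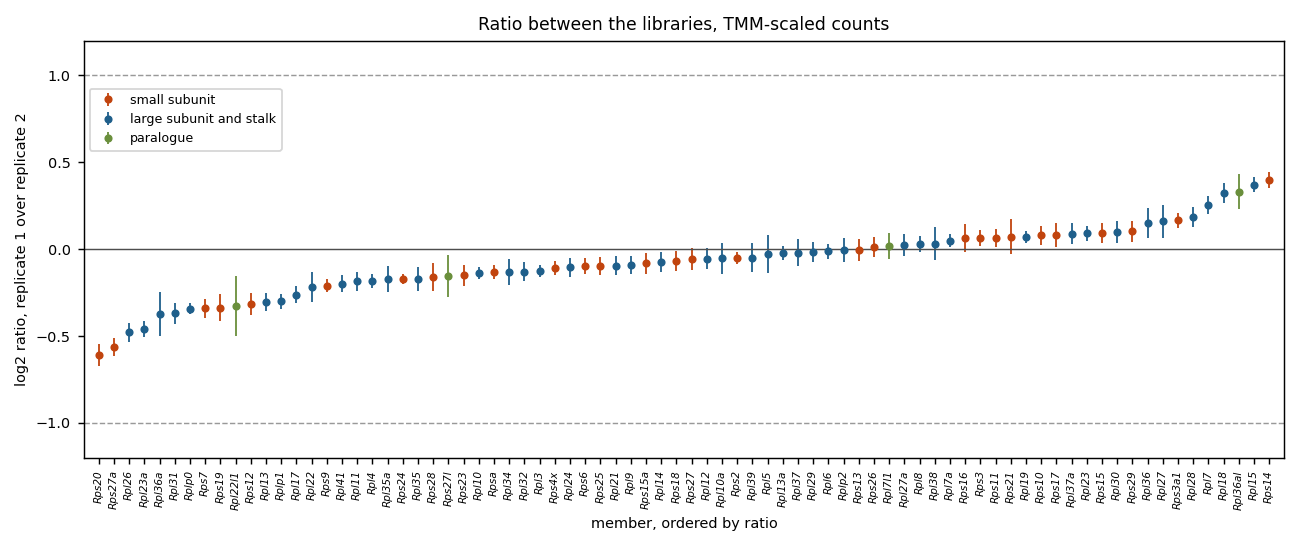
Log2 ratio of replicate 1 over replicate 2 for 78 of the 81 ribosomal protein genes with at least 20 counts in both libraries, from TMM-scaled counts, ordered from low to high; bars are exact binomial 95% intervals of counting error and dashed lines mark 2-fold. The values run from -0.61 for Rps20 to 0.40 for Rps14, and none reaches a dashed line.

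The authors deposited a second quantification of the same reads, made from the FASTQ files without that alignment. It gave lower levels: the median of the standard genes was 531 and 563 TPM in the alignment-derived table and 420 and 395 TPM in the FASTQ-derived table. The share of all TPM held by the 84 genes was 4.82% and 5.14% in the alignment-derived table and 3.59% and 3.55% in the FASTQ-derived table. For each gene the difference was taken as the mean over libraries of log2(TPM + 1), alignment-derived minus FASTQ-derived, less 0.16, which is its median over 10807 protein-coding genes with at least 1 TPM in both tables. The median difference of the standard genes was 0.26 on this log2 scale. In the same units the SD was 0.81 over the 77 standard genes and 0.23 over the 10807 protein-coding genes.

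Of the 81 members with at least 1 TPM in both tables, 5 were at least 2-fold higher in the alignment-derived table, against 0.185% of protein-coding genes, and none was 2-fold lower, against 0.278%. The 5 genes were Rps12, Rpl12, Rpl5, Rps15a and Rpl10a. Rps12, a protein of the small-subunit head, had 493 TPM in replicate 1 and 623 TPM in replicate 2 in the alignment-derived table, and 9.77 and 17.6 TPM in the FASTQ-derived table. Its log2 difference was 5.40 in replicate 1 and 4.87 in replicate 2, each centred on the median of that library. Rpl12, which sits at the base of the stalk, had 209 and 212 TPM in the alignment-derived table, and 8.62 and 8.69 TPM in the FASTQ-derived table, a centred log2 difference of 4.29. Rpl5 had 46.2 and 49.1 TPM in the alignment-derived table, and 5.21 and 3.04 TPM in the FASTQ-derived table, a difference of 3.12. In each of these 3 genes the FASTQ-derived value was far outside the range of the 2 alignment-derived values.

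The differences of Rps15a and Rpl10a lay just past 2-fold. Rps15a had 653 and 696 TPM in the alignment-derived table, and 289 and 254 TPM in the FASTQ-derived table, a centred log2 difference of 1.15. Rpl10a had 156 TPM in both libraries in the alignment-derived table, and 67.7 and 66.3 TPM in the FASTQ-derived table, a difference of 1.05. Rpl10, Rps16 and Rps27 came next, at 0.91, 0.72 and 0.70, less than 2-fold after centring. Without centring Rpl10 was also 2-fold apart.

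**Figure D3:**
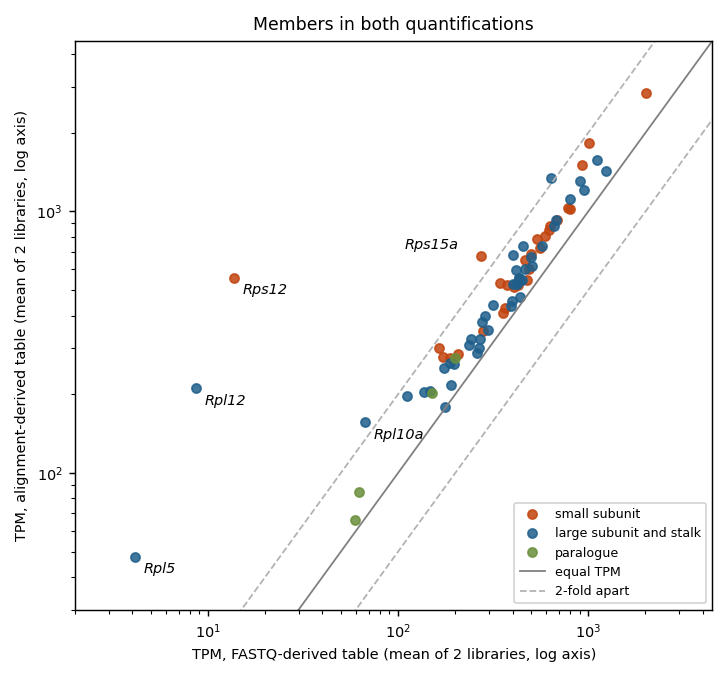
Mean TPM over both libraries in the alignment-derived table (vertical) and the FASTQ-derived table (horizontal) for 78 of the 81 ribosomal protein genes with at least 1 TPM, both on log axes; the solid line marks equal TPM and dashed lines 2-fold, before centring. Rps12, Rpl12 and Rpl5 lie far to the left of all others, and the 5 genes at least 2-fold apart after centring are named.

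Rps12, Rpl12 and Rpl5 each have a near-identical copy elsewhere in the genome that was high in the FASTQ-derived table. Entries of other genes were called copies of a member when at least 50% of their 31-base words (31-mers) occurred in the coding transcripts of that member. There were 310 copies of 70 members, of which 289 were typed processed pseudogene, 10 transcribed processed pseudogene, 10 protein coding and 1 lincRNA. Copies were searched for the members only, so these counts cannot be set beside those of other genes. A read that falls wholly inside a shared stretch cannot be placed by its sequence, so the split between a member and its copies is set by each tool.

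For the 28 pairs in which the copy reached 20 TPM in either table, the member's coding sequence was aligned to the copy. It was identical over its whole length in 17 pairs, and 22 pairs had at most 3 differing bases and no gap. The first 78 bases of 5 coding sequences are shown because the copy holds the same letters. They are read 5′ to 3′ from the GENCODE M21 transcripts, with the start codon in capitals, and the fourth is the complete reading frame of Rpl41 with its stop codon.
Rps12 and Rps12-ps3: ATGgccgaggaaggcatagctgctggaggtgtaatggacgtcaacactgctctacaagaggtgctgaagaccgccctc
Rpl12 and Gm10275: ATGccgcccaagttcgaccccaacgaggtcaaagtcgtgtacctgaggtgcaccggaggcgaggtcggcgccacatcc
Rps28 and Gm10443: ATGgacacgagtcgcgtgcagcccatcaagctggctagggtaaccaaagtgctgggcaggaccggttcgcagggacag
Rpl41 and Gm10076: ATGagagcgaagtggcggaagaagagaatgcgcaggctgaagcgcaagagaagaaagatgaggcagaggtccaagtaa
Rpl10 and Rpl10-ps3: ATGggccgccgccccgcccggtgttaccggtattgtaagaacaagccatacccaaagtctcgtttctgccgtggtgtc

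For comparison, Rpl23 and its copy Gm9794 (chr6:66875321-66875743) differed at 1 of 423 coding bases, C253T, counted from 1 at the A of the start codon with the base of Rpl23 first. Bases 214 to 291 of the coding sequence are shown with the differing base in capitals.
Rpl23: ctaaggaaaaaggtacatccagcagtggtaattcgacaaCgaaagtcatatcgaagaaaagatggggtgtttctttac
Gm9794: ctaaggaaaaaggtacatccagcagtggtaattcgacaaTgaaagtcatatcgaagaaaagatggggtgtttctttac

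Rps12 (chr10:23785183-23787275, minus strand) and Rps12-ps3 (chr19:59322290-59322783), an entry typed protein coding, share all 399 coding bases. Rps12-ps3 had 11.9 and 12.8 TPM in the alignment-derived table, and 501 and 597 TPM in the FASTQ-derived table. The FASTQ-derived values of the copy were close to the alignment-derived values of Rps12 (493 and 623 TPM). Another identical copy, Rps12l1 on chromosome 7, had 25.2 and 61.7 TPM in the alignment-derived table and was listed at 0 in the FASTQ-derived one.

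Rpl12 (chr2:32961559-32965345, plus strand) showed the same pattern with Gm10275 (chr10:29698746-29699380), a transcribed processed pseudogene identical over 498 coding bases. Gm10275 had 144 and 208 TPM in the alignment-derived table, and 513 and 538 TPM in the FASTQ-derived table. Rpl5 and Gm15500 (chr7:114705217-114706235) were identical over all 894 coding bases. Gm15500 had 281 and 352 TPM in the alignment-derived table, and 293 and 332 TPM in the FASTQ-derived table. For Rpl5, therefore, both tables placed most of the signal in the copy, and the copies held 86.9% of the summed TPM of Rpl5 and its copies in the alignment-derived table and 98.7% in the FASTQ-derived table.

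Rpl10 and Rpl10-ps3 (chr9:50344201-50344968) were identical over 645 coding bases. Rpl10-ps3 had 54.1 and 65.6 TPM in the alignment-derived table, and 409 and 420 TPM in the FASTQ-derived table. Rpl10a-ps1 on chromosome 1, identical to Rpl10a over 654 coding bases, had 47.7 and 52.5 TPM in the alignment-derived table, and 108 and 107 TPM in the FASTQ-derived table. In both pairs the copy was higher in the FASTQ-derived table in each library.

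For other members the alignment-derived table gave more to the copy. Gm10076 (chr14:105681828-105682211), a lincRNA entry that contains the whole reading frame of Rpl41, had 1028 and 1647 TPM in the alignment-derived table, and 1.66 and 0.64 TPM in the FASTQ-derived table. Gm10443 (chr6:86334031-86334240), identical to the coding sequence of Rps28, had 769 and 988 TPM in the alignment-derived table and was listed at 0 in the FASTQ-derived one. Rpl31-ps8 had 412 and 559 TPM in the alignment-derived table, and 245 and 274 TPM in the FASTQ-derived table, against 271 and 331 TPM for Rpl31 in the alignment-derived table. Copies held over 50% of the TPM of member and copies together for 8 members in the alignment-derived table (Rpl5, Rpl27a, Rpl27, Rps23, Rpl31, Rpl35, Rpl36a and Rps28). In the FASTQ-derived table this held for 9 (Rpl12, Rps12, Rpl5, Rpl27a, Rps23, Rpl10a, Rpl27, Rps16 and Rpl35). No such share was computed for other genes.

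When each member was summed with its copies the few widest gaps between the tables shrank, while the typical gap hardly moved. The SD of the centred log2 difference over the 77 standard genes was then 0.28, against 0.81 without the copies, and its median absolute value 0.25, against 0.26. The rank correlation between the tables across these genes was 0.926 with the copies, against 0.945 without. The difference of Rps12 became -0.04, that of Rpl5 0.03 and that of Rpl10a 0.08, while Rpl12 changed sign to -0.61. Rps15a stayed at 1.16, and Rps28 with its copies passed 2-fold at 1.31. Over all 84 genes the copies summed to 5534 and 7052 TPM in the alignment-derived table, and 4359 and 4536 TPM in the FASTQ-derived table. The members themselves summed to 48232 and 51376 TPM in the alignment-derived table.

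**Figure D4:**
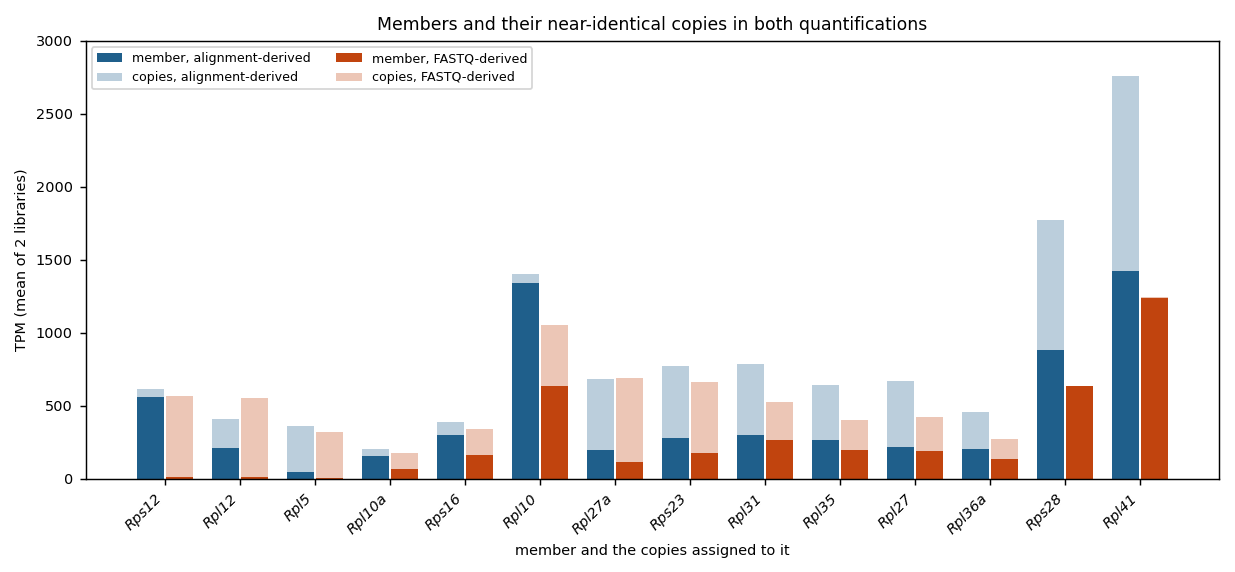
Mean TPM over both libraries for 14 members (dark) with the summed TPM of their copies stacked on top (pale), in the alignment-derived table (blue, left bar) and the FASTQ-derived table (red, right bar). In Rps12, Rpl12 and Rpl10 the pale part is larger in the FASTQ-derived bar, and in Rps28 and Rpl41 it is large only in the alignment-derived bar; these 14 were picked with their values known.

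The share of a member's 31-mers found in transcripts of any other gene ran from 0% to 99.02%, with a median of 45.4%. It was highest for Rpl35 at 99.02%, Rpl36 at 94.1%, Rpl23a at 89.8%, Rpl36a at 88.3% and Rpl7a at 87.1%. Among the lowest were Rpl3l at 0%, Rpl39l at 2.05%, Rps15a at 7.29% and Rpl8 at 8.05%. Over the standard genes, Spearman's rho between this share and the absolute difference between the tables was 0.06. Rpl36, with 94.1% shared 31-mers, had a centred difference of 0.53, and Rps15a, with 7.29%, was 2-fold apart. The share counts matches to any gene, whatever its level, and was not computed for genes other than the members. Its part in the differences between the tables was not tested.

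The alignment-derived table carries its own measure of this uncertainty, a posterior SD of each count. Its median over the 81 members was 0.073% of the count in replicate 1 and 0.099% in replicate 2. Over protein-coding genes with a mean of at least 1 TPM the median was 0.0% in both libraries, lower than that of the members. The posterior SD exceeded 1% for 4 members in replicate 1 (Rpl5, Rpl10a, Rpl27 and Rpl36a) and for 5 in replicate 2 (the same 4 and Rps16). The share of all genes above 1% was not computed. These SDs were much smaller than the gap between the tables for Rps12, where the posterior SD was 0.56% and 0.73% of the count. The table also gives an interval for each TPM at a level not given in the sources used here, and the deposited TPM lay outside it for 56 and 55 of the 81 members. The same count was not made over all genes, so it says nothing particular to the members.

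Most ribosomal protein mRNA was assigned to coding transcripts. Among the 79 members with a mean of at least 10 TPM in the FASTQ-derived table, the median share of TPM in transcripts not typed protein coding was 0.38%, and over the 6613 protein-coding genes that passed this filter it was 2.61%. This share exceeded 10% in 8 of the 79 members, against 27.4% of those protein-coding genes. The annotated type is a property of the transcript model and not a measurement of translation or decay.

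Rps20 had the highest share, with 88.0% of its TPM in replicate 1 and 89.1% in replicate 2. Nearly all of it belonged to Rps20-201, a retained-intron model of 582 bases, which had 129 and 199 TPM, while the coding model Rps20-203 of 3706 bases had 17.9 and 24.4 TPM. In Rps16 the share was 85.1% and 85.7%, led by the retained-intron model Rps16-203 of 518 bases with 108 and 95.5 TPM. In Rpsa, which encodes the small-subunit protein also known as the laminin receptor, it was 77.8% and 76.8%, nearly all from Rpsa-206, a model typed nonsense-mediated decay, with 275 and 273 TPM. In Rps12 the share was 55.2% and 47.0%. The libraries lay within 2 percentage points of each other for Rps20, Rps16 and Rpsa, and Rps12 rested on the 9.77 and 17.6 TPM left to it in that table.

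**Figure D5:**
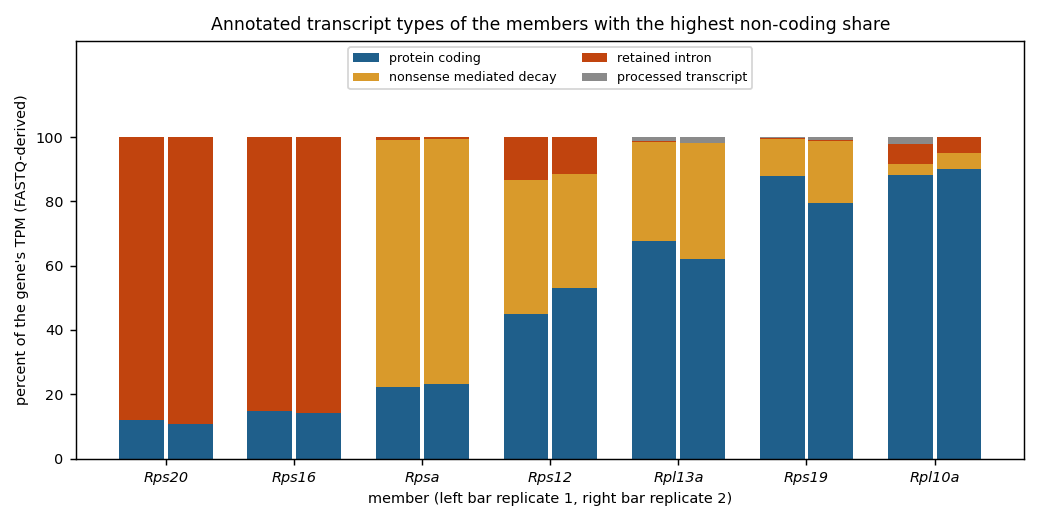
Percent of each gene's FASTQ-derived TPM by annotated transcript type for 7 of the 8 members in which over 10% lay outside protein-coding models; the left bar of each pair is replicate 1 and the right bar replicate 2. Retained-intron models led in Rps20 and Rps16, and nonsense-mediated decay models in Rpsa.

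The 84 genes had 501 annotated transcripts, and in 74 of the 81 detected members the same transcript led in both tables. The 7 exceptions were Rpl12, Rpl21, Rpl31, Rpl41, Rplp2, Rps12 and Rps15a. Leading transcripts were not compared for other genes, so these counts say nothing particular to the members. In Rps24 the same model, Rps24-201 with 130 codons, held 86.2% and 85.3% of the alignment-derived TPM and 84.4% and 84.7% of the FASTQ-derived TPM. Its alternative Rps24-210, with 133 codons, held 4.70% and 5.15% of the alignment-derived TPM. In Rps15a the leading model differed: Rps15a-203, a 250-base model with 71 codons, had 456 and 492 TPM in the alignment-derived table, and 99.7 and 70.4 TPM in the FASTQ-derived table. The full-length model Rps15a-201, with 130 codons, had 175 and 180.2 TPM in the alignment-derived table, and 172 and 165 TPM in the FASTQ-derived table. The difference of Rps15a between the tables thus lay in the short model, while the full-length model was alike in both. In Rpl41 the tables exchanged 2 models of 25 codons: Rpl41-203 had 903 and 1062 TPM in the alignment-derived table, and 139 and 128 TPM in the FASTQ-derived table, while Rpl41-201 had 176 and 218 TPM in the alignment-derived table, and 859 and 1052 TPM in the FASTQ-derived table.

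The start sites were examined for the TOP tract. RefSeq promoter sequences (GRCm38.p6) matched 64 of the 84 members, with 76 starts. The start base was a C followed by at least 4 pyrimidines in 13 of the 64 (20.3%, exact binomial 95% interval 11.3 to 32.2%), against 2.97% of 26961 other genes. When the tract was allowed to begin within 5 bases of the annotated start, it was found in 45.3% of members and 21.1% of other genes. Only the strand of the gene was read for the tract. The other genes were all those with a RefSeq start, with no filter on type or level, and so were not matched to the members. The windows of 6 members with the tract at the start are shown from 20 bases before the start to 20 bases from it on, 5′ to 3′ on the strand of the gene, with the pyrimidine run that begins at the start in capitals.
Rps27 at chr3:90213629-90213668, minus strand: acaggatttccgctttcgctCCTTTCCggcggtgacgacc
Rps6 at chr4:86857348-86857387, minus strand: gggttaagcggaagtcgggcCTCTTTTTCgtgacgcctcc
Rps10 at chr17:27635225-27635264, minus strand: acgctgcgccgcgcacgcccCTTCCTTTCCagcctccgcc
Rpl15 at chr14:18270967-18271006, minus strand: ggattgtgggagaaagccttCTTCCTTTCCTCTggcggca
Rpl35 at chr2:39005112-39005151, minus strand: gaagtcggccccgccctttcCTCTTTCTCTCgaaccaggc
Rpl38 at chr11:114668560-114668599, plus strand: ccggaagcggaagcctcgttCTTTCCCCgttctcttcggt

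The run is 13 bases long in Rpl15 and 7 in Rps27. Of the genes shown, Rps27 had 1703 and 1946 TPM, Rpl38 659 and 700.4 TPM, and Rpl35 251 and 273 TPM. The Ets-family core CCGGAA, searched on both strands of the 300-base windows, occurred in 35 of the 64 members (54.7%), against 16.6% of other genes. AAGATGGC, the core bound by Yy1, occurred in 9.38% of members and 3.17% of other genes, and TATAAA in 10.9% and 15.7%, again on both strands. The other genes were again not matched to the members in type or level. A match is only a string of letters, and binding was not measured.

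Ribosomal protein genes also host small nucleolar RNAs, which are cut from their introns and guide modification of ribosomal RNA. At least 1 snoRNA or scaRNA gene lay inside 30 of the 84 members on the same strand, 58 in all. This is 35.7% of the members, against 2.04% of the 10960 protein-coding genes with a mean of at least 1 TPM, a count of which the members are part. Host genes included Rpl4 with 5, Rpl13a with 4, and Rps12 with 3. The members lie on 19 chromosomes, with 14 on chromosome 7 and 4 on the X chromosome.

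Genes that work with the ribosome were read from lists chosen for their roles. Fau encodes a standard small-subunit protein as a fusion with a ubiquitin-like protein, and its symbol falls outside the naming rule. Fau had 556 and 633 TPM in the alignment-derived table, and 380.4 and 394 TPM in the FASTQ-derived table, a centred log2 difference of 0.45. It stood near the median of the standard genes in the alignment-derived table.

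Lists were compared between the libraries for elongation factors, other TOP mRNAs, ribosome biogenesis, ribosomal DNA transcription, TOP regulation and chaperones or importers. None of the genes in these lists was 2-fold apart. Of the 12471 genes with at least 20 counts in both libraries, 0.521% were 2-fold higher in replicate 1 and 1.94% were 2-fold lower. With such low shares among all genes, the absence of such genes from short lists says nothing particular to the lists. Among 5 elongation factor genes, Eef1a1, which brings aminoacyl-tRNA to the ribosome, was highest with 3167 TPM in replicate 1 and 2985 TPM in replicate 2. Eef2, the translocase, had 747 and 667 TPM, and Eef1d was lowest with 122 and 108 TPM. Among 11 other TOP mRNAs found, Tpt1 had 1303 TPM in replicate 1 and 2247 TPM in replicate 2, a log2 ratio of -0.84. Vim had 1265 and 1300.5 TPM, Pabpc1, the poly(A)-binding protein, 556 and 509 TPM, and Eif3f was lowest with 94.4 and 88.2 TPM. In alignment-derived counts Tpt1 was further apart between the libraries than any of the 81 members, while in the FASTQ-derived counts Rps12 reached -0.78.

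The 21 biogenesis genes had medians of 22.0 and 17.4 TPM and a median log2 ratio of 0.16. Pes1 was highest with 98.7 TPM in replicate 1 and 76.0 TPM in replicate 2, followed by Ncl with 93.1 and 77.2 TPM. Fbl, the methyltransferase of box C/D snoRNPs, had 55.9 and 35.1 TPM and a log2 ratio of 0.63. Rrp12 was lowest with 5.25 and 4.56 TPM. In the 10 genes of ribosomal DNA transcription, Polr1d, Ubtf and Polr1c led with 72.7, 39.1 and 38.8 TPM in replicate 1 and 67.1, 42.2 and 26.6 TPM in replicate 2, and Taf1a was lowest with 2.86 and 3.05 TPM.

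Regulators of TOP mRNA included Eif4g1, a scaffold of translation initiation. Eif4g1 had 116 TPM in replicate 1 and 99.2 TPM in replicate 2, Eif4e 83.9 and 85.1 TPM, and Larp1 59.5 and 52.6 TPM, while the lowest of the 13 genes by mean, Tsc1, had 8.49 and 8.31 TPM. Of 11 chaperones and importers of ribosomal proteins found, Aamp, Kpnb1 and Ipo5 were highest, with 91.2, 73.5 and 70.2 TPM in replicate 1 and 75.5, 72.4 and 60.3 TPM in replicate 2. Sdad1 was lowest with 6.00 and 6.32 TPM. The 78 mitochondrial ribosomal protein genes, named Mrpl and Mrps, had medians of 36.3 and 35.3 TPM, and their highest, Mrps21, had 181 and 163 TPM. Of these genes, Mrpl23 alone was 2-fold apart between the tables by its mean over both libraries. Mrpl23 had 17.4 and 17.8 TPM in the alignment-derived table, and 4.39 and 10.04 TPM in the FASTQ-derived table. In replicate 2 alone it was less than 2-fold apart. Among protein-coding genes 0.185% were 2-fold higher in the alignment-derived table and 0.278% were 2-fold lower. The median of the standard cytosolic genes was thus above the highest mitochondrial ribosomal protein gene in both libraries.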

How the data were processed

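Per the labels, polyadenylated RNA-seq libraries were made from whole-cell RNA of 2 macrophage samples. The authors deposited an alignment-derived gene table and transcript table with expected counts and TPM, and a FASTQ-derived transcript table with estimated counts and TPM, per the file headers. Deposited notes give mm10 and GENCODE M21, and the sources used here name neither the quantification tools nor any use of strand. The alignment-derived gene table also holds signal values, the authors' posterior SD of each count and interval bounds on TPM, as deposited. Expected counts were rounded to whole numbers, and FASTQ-derived TPM were summed per gene. Libraries were scaled with edgeR 4.0.16 (TMM) or, as an alternative, DESeq2 1.42.0 size factors, with 0.5 added to each scaled count. No test across genes was made, since each side of every comparison is 1 library or 1 table. The 2-fold rule and the centring between tables were tried on simulated data with known changes. There the library ratios were centred on their median and not scaled by TMM, and the counts held counting error only. The simulation therefore did not cover TMM scaling, differences between cultures or the sharing of reads with copies. Gene types, coordinates, transcripts and 31-mers came from GENCODE M21, and start windows from RefSeq. Entries that are small RNAs, and 3 that overlap the member's locus, were left out of the copies.

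The members and lists were chosen with earlier results of these data known. Named genes are the 6 highest and 6 lowest standard genes, all paralogues, the 5 highest and 5 lowest library ratios with at least 100 counts, the 8 largest differences between tables, the 5 highest non-coding shares, the 5 highest and 5 lowest 31-mer shares, and of each list the 3 highest, the lowest and any gene 2-fold apart. Copies, start motifs other than the TOP tract, snoRNA genes and a few further members were added after their values were seen. A few genes, some of them named by this rule, are not reported or drawn here, although they are part of all counts and medians. Alternatives were another scaling, other count and TPM filters, pseudocounts, word lengths, tract definitions, denominators, each library alone and sums with pseudogenes.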

Additional observations from a re-analysis of the deposited data

How the results depend on the processing

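No paired analysis was possible because all libraries belong to 1 group. The median TPM of the standard genes, 543 as the mean of both libraries, was 418 in the FASTQ-derived table and 615 with TPM rescaled to nuclear protein-coding genes, and 531 to 563 with 1 library left out. The members' share of TPM, 4.98%, was 3.57% in the FASTQ-derived table, 1.36% of expected counts and 5.63% of the TPM of nuclear protein-coding genes, and 4.82 to 5.14% with 1 library left out. The median library ratio stayed between -0.06 and -0.04 under every scaling, filter and table tried. No member was 2-fold apart between the libraries except without a count filter, when 1 was, Rpl3l with 2 counts and 0. In FASTQ-derived counts 9 of 81 library ratios changed sign, and 21 moved by more than their counting error at 95%, with Rps12 lowest at -0.78 and Rpl5 highest at 0.61.

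The count of members 2-fold apart between the tables, 5, was 3 after summing with named pseudogenes (Rpl12, Rpl5 and Rps15a) and 2 after summing with the copies, an alternative chosen after seeing the data. It was 6, with Rpl10 added, without centring, and the same 5 under the other filters and pseudocounts and in each library alone. The median non-coding share, 0.38%, was 0.42% in the alignment-derived transcript table and 0.36 to 0.38% with 1 library left out. The median share of shared words was 50.1% at 21 bases and 30.9% at 75 bases, against 45.4% at 31. The share of matched genes with a TOP tract at any start was 45.3% when it could begin within 5 bases and 21.9% for a run of at least 6 pyrimidines.

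In the alignment-derived table depth limits only the paralogues Rpl3l, Rpl10l and Rpl39l, since every standard gene had over 1000 counts in each library there. In the FASTQ-derived table the standard genes reached down to 5.21 TPM in replicate 1 and 3.04 TPM in replicate 2. For Rps12, Rpl12 and Rpl5 the tables differed more than the libraries did, and neither table can be called correct from these files.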
